A study of Mus musculus with 8 samples.

Results

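The 10 genes described here belong to the FOXO programme of muscle protein breakdown and autophagy: the transcription factors Foxo1 and Foxo3, the ubiquitin ligases Trim63 and Fbxo32, and the autophagy and lysosome genes Ulk1, Map1lc3b, Gabarapl1, Sqstm1, Bnip3 and Ctsl. They were given as a list of symbols. Every probe set that the array annotation assigns to exactly 1 of these symbols was taken, and the brightest was used where a gene had several. All 10 were found among the 19938 genes measured, and 2 of them, Map1lc3b and Bnip3, had a further probe set.

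The study profiled gastrocnemius, a calf muscle of mainly fast fibres, on 8 Affymetrix arrays. There were 4 samples from mice lacking the histone deacetylase Hdac5 and 4 from wild type littermates. All animals were 30 weeks old, ate low-fat chow and had no further treatment. The labels name neither the deleted part of Hdac5, nor the tissues in which it was deleted, nor the sex of the animals. Nothing in the labels ties each sample to an animal of its own, so each p-value rests on the spread among these samples alone, which may in part be technical.

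FOXO factors are held in the cytoplasm when insulin and IGF-1 signal through Akt. When that signal wanes, in fasting, disuse or glucocorticoid excess, they enter the nucleus and switch on genes that take muscle protein apart by the proteasome and by autophagy. Trim63 (MuRF1) and Fbxo32 (atrogin-1) are the classic markers of this atrophy response. In denervated muscle, class IIa deacetylases such as HDAC4 and HDAC5 are known to act upstream of the same ligases, by repressing Dach2 and so releasing myogenin, which activates Trim63 and Fbxo32.

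The promoters give the sequence context of these inputs, and those of Trim63 and Map1lc3b are printed because the former held the only FOXO motif match among the members and the latter gene had the largest difference between genotypes with all samples. They are the 250 bases before the RefSeq gene start (build GRCm38.p6), at chr4:134314870-134315119 and chr8:121590188-121590437, both on the + strand. Capitals mark matches to the FOXO motif GTAAACA, here in its reverse complement, and to the E-box CANNTG, the kind of site that myogenin binds.
Trim63 promoter: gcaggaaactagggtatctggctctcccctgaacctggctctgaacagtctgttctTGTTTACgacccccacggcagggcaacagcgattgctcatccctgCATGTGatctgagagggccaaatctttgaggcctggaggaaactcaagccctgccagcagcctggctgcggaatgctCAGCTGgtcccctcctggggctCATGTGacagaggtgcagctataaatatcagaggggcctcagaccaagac
Map1lc3b promoter: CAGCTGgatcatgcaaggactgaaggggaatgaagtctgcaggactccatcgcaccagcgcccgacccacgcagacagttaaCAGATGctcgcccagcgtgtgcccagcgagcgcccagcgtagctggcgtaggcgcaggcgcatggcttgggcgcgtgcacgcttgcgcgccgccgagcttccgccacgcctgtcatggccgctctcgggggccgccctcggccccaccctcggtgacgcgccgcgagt
Of the 10 members, 9 were in the RefSeq promoter table, all but Fbxo32. The FOXO motif, searched on both strands, was in 1 of these 9 windows, that of Trim63, where it began 194 bases before the start, and in 3.17% of the 32851 promoters of that length. E-boxes, which read the same on either strand, were in 6 of 9 windows and in 66.2% of all. Their CACGTG form, the core of the motif that the lysosome regulator TFEB binds and a subset of the E-box, was in the Bnip3 and Ctsl windows and in 6.02% of all. The MEF2 motif was in 0 of 9 windows and in 0.508% of all. A match is a description of the letters and not a bound site.

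None of the 10 genes passed the test. In limma, 0 of 10 members reached an adjusted p under 0.05, where 13 of all 19938 genes, or 0.0652%, did. At an unadjusted p under 0.05 limma gave 1 member, Map1lc3b, against a background of 7.9% of all genes, and the exact permutation test gave the same 1. The knockout mean was nonetheless the lower in all 10 members, with a median difference (knockout minus wild type) of -0.052 on the log2 scale, while 48.6% of all genes had a lower knockout mean and their median difference was 0.0030. Among the 4985 genes above the 75th percentile of array signal, which include 9 of the 10 members, that share was 40.1%. The members were read from the same 8 arrays, so their common sign is not 10 separate observations.

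**Figure D1:**
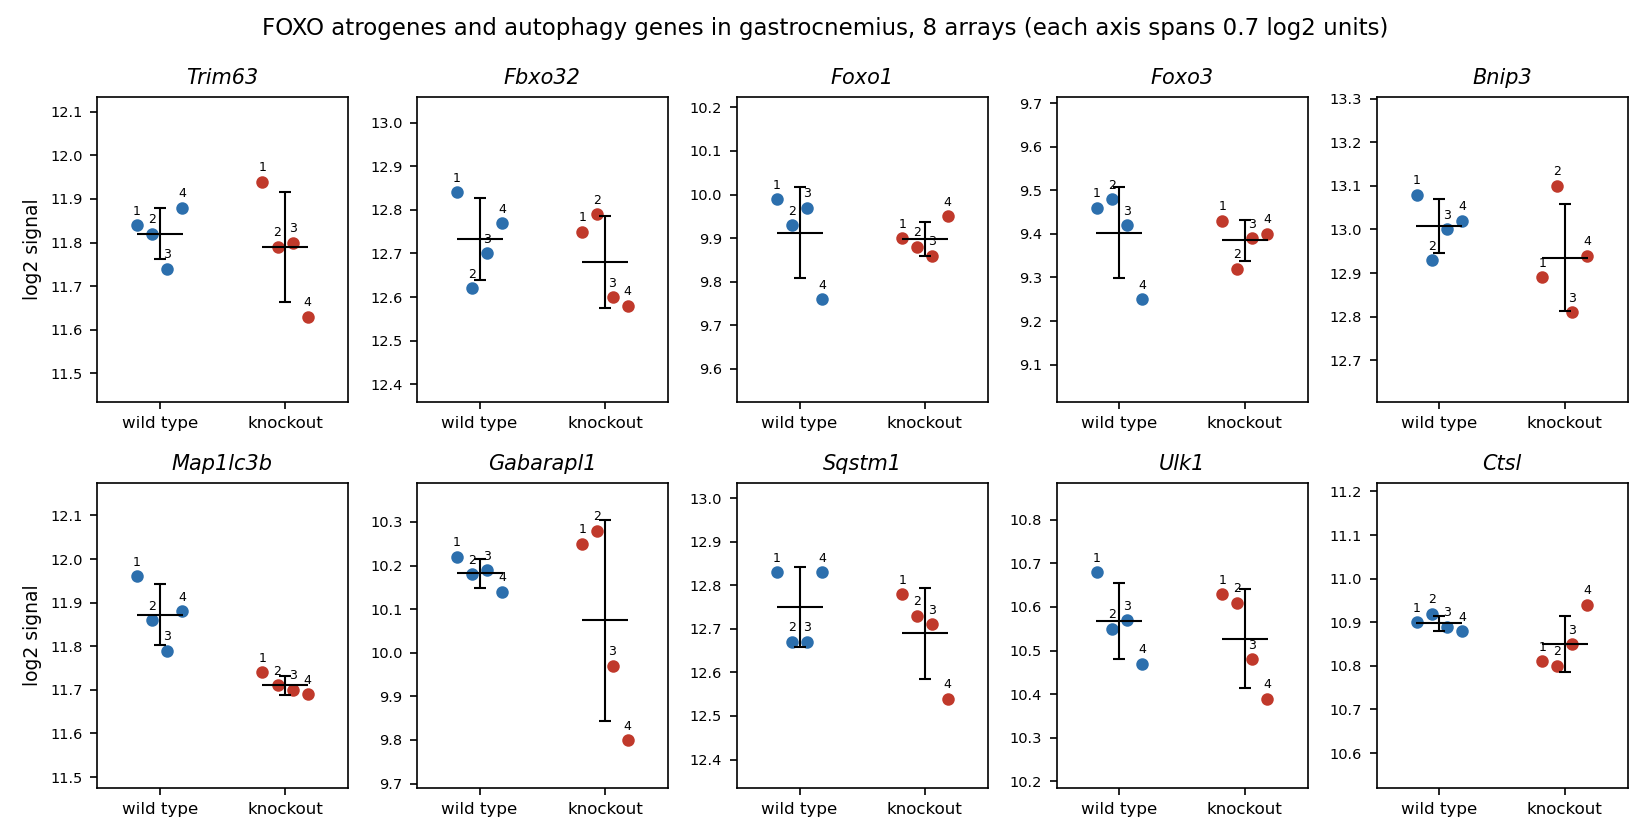
Log2 signal (vertical axis) of each of the 10 genes in the 4 wild type samples (blue) and the 4 knockout samples (red), numbered within genotype; the bar and whiskers are the mean and SD. Map1lc3b is the only panel in which the genotypes do not overlap (knockout 11.69 to 11.74, wild type 11.79 to 11.96), and knockout sample 4 is the lowest array in 6 panels.

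The upstream factors Foxo1 and Foxo3 had overlapping genotypes and the smallest differences with all 8 samples, an order that did not hold without wild type sample 4 (-0.066 and -0.067, against -0.012 for Trim63). Foxo1 read 9.90, 9.88, 9.86 and 9.95 in knockout samples 1 to 4 and 9.99, 9.93, 9.97 and 9.76 in wild type samples 1 to 4. The knockout values lay inside the wild type range, whose lower end was set by wild type sample 4. Foxo1 therefore differed by -0.015 (SE 0.0637), with a limma adjusted p of 0.971 and an exact permutation p of 0.857. Foxo3, the FOXO member best known for driving both atrogin-1 and autophagy, read 9.43, 9.32, 9.39 and 9.40 in knockout and 9.46, 9.48, 9.42 and 9.25 in wild type samples. The same wild type sample 4 was the lowest array, and the knockout values again lay inside the wild type range. The Foxo3 difference was -0.016 (SE 0.0644, limma adjusted p 0.971). FOXO activity is set mainly by phosphorylation and location, which transcript levels do not measure.

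The ubiquitin ligases showed overlapping genotypes as well. Trim63, which tags myosin and other thick filament proteins for breakdown, read 11.94, 11.79, 11.80 and 11.63 in knockout and 11.84, 11.82, 11.74 and 11.88 in wild type samples. Knockout samples held both the highest and the lowest value. The means were 11.79 ± 0.124 and 11.82 ± 0.057 (SD, n = 4 each), a difference of -0.031 (SE 0.0695, limma adjusted p 0.946, exact permutation p 0.714). The 95% interval places knockout Trim63 signal between 88.1% and 109% of wild type.

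Fbxo32, the F-box protein that targets MyoD and the translation factor eIF3-f, read 12.75, 12.79, 12.60 and 12.58 in knockout and 12.84, 12.62, 12.70 and 12.77 in wild type samples. Knockout samples 3 and 4 lay below every wild type sample, and samples 1 and 2 lay among the wild type values. The difference was -0.052 (SE 0.0704, limma adjusted p 0.906, exact permutation p 0.486), with an interval of 86.7% to 107% of wild type signal. It ranged from -0.090 without knockout sample 2 to -0.017 without wild type sample 1. Neither interval leaves out an equal level in the genotypes.

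Map1lc3b, which encodes LC3B, the ubiquitin-like protein that is joined to lipid on the growing autophagosome, had the largest difference of the 10 with all samples. Without knockout sample 2, Gabarapl1 was at -0.18 and Map1lc3b at -0.17. It read 11.74, 11.71, 11.70 and 11.69 in knockout and 11.96, 11.86, 11.79 and 11.88 in wild type samples. Every knockout sample lay below every wild type sample, and the knockout values were close together (SD 0.021, against 0.067 in wild type). Such a separation downward was found in 1 of the 10 members and in 1.99% of all genes. The difference was -0.165 (SE 0.0555, 95% interval -0.286 to -0.0434), or 89.2% of wild type signal, with an exact permutation p of 0.0286, below which a comparison of 4 with 4 samples cannot go. The limma adjusted p was 0.457, so Map1lc3b did not pass over all genes.

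The further Map1lc3b probe set gave a like result. It read 11.55, 11.52, 11.51 and 11.50 in knockout and 11.79, 11.75, 11.62 and 11.77 in wild type samples, again without overlap. The difference was -0.211 (SE 0.0547), with a limma adjusted p of 0.391 over the 35556 probe sets of the table. The annotation pairs both probe sets with the same RefSeq transcript and the same samples were measured, so they are not independent, and the part of near-identical copies of the gene in either signal was not tested.

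**Figure D2:**
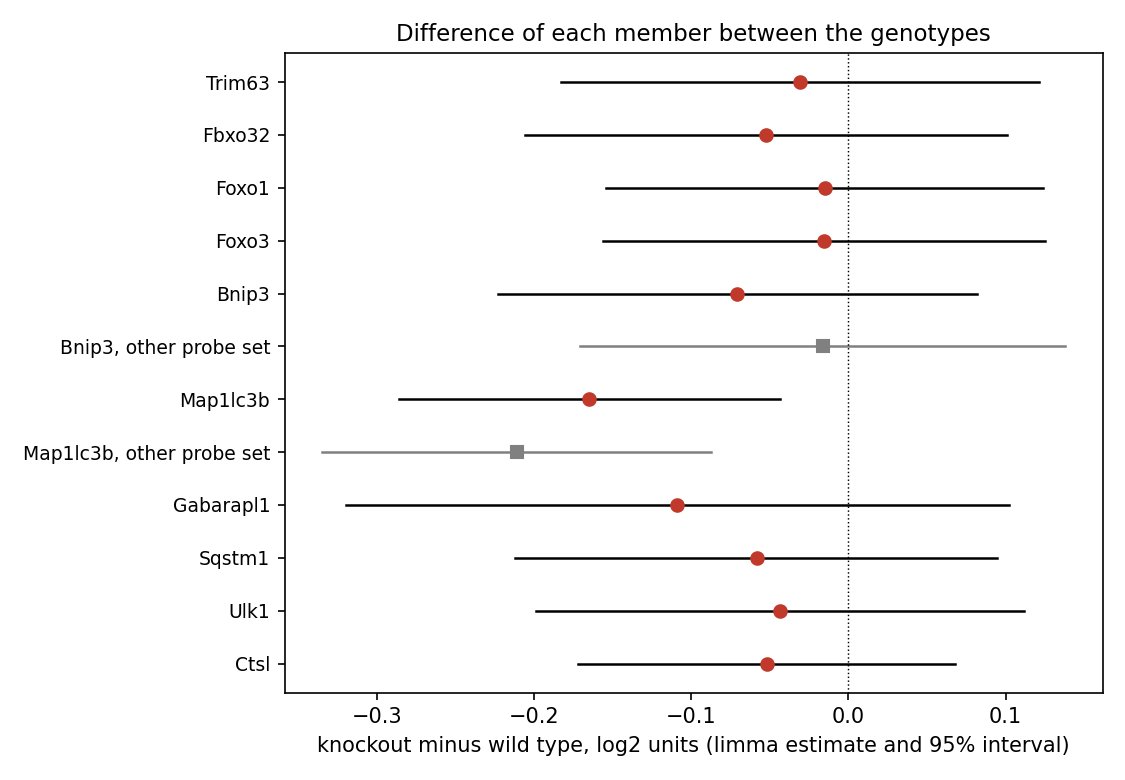
Knockout minus wild type difference in log2 units (horizontal axis) for each gene, with limma's 95% interval; red circles are the probe sets used and grey squares the further probe sets of Bnip3 and Map1lc3b. All points lie left of 0, but only the Map1lc3b intervals (-0.286 to -0.0434, and -0.335 to -0.0874 for its further probe set) leave 0 out.

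Gabarapl1, another member of the ATG8 family to which LC3B belongs, was the most variable of the genes. It read 10.25, 10.28, 9.97 and 9.80 in knockout and 10.22, 10.18, 10.19 and 10.14 in wild type samples. Knockout samples 3 and 4 were below all wild type samples, and samples 1 and 2 were above them all. The spread was thus 0.230 (SD) in knockout and 0.035 in wild type, and the difference of -0.109 (SE 0.0966) did not pass (limma adjusted p 0.842, exact permutation p 0.429). Without knockout sample 4 it was -0.017, and without knockout sample 2 it was -0.18.

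Ulk1, the kinase that starts autophagy when AMPK activates it and mTORC1 releases it, read 10.63, 10.61, 10.48 and 10.39 in knockout and 10.68, 10.55, 10.57 and 10.47 in wild type samples. The order of the knockout samples resembled that of Gabarapl1, with samples 3 and 4 the lower. The difference was -0.043 (SE 0.0712, limma adjusted p 0.925, exact permutation p 0.571).

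The cargo receptors bind both a cargo and the ATG8 proteins. Sqstm1 (p62), which carries ubiquitin-tagged protein to the autophagosome, read 12.78, 12.73, 12.71 and 12.54 in knockout and 12.83, 12.67, 12.67 and 12.83 in wild type samples. Knockout sample 4 stood below the rest, and the other knockout samples lay within the wild type range. The difference was -0.059 (SE 0.0702, limma adjusted p 0.885, exact permutation p 0.457), and -0.0089 without knockout sample 4.

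Bnip3, a mitophagy receptor on the outer mitochondrial membrane and a FOXO3 target in muscle, read 12.89, 13.10, 12.81 and 12.94 in knockout and 13.08, 12.93, 13.00 and 13.02 in wild type samples. The highest value and the lowest were both from knockout samples. The difference was -0.071 (SE 0.0699, limma adjusted p 0.858, exact permutation p 0.343). It ranged from -0.13 without knockout sample 2 to -0.029 without knockout sample 3. Its further probe set, which ranged from 11.81 to 12.02 in knockout and from 11.82 to 12.01 in wild type samples, gave -0.016 (SE 0.0682). The annotation pairs both Bnip3 probe sets with the same RefSeq transcript. The part of near-identical copies of the gene in either signal was not tested.

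Ctsl, the lysosomal protease cathepsin L and an early marker of muscle wasting, read 10.81, 10.80, 10.85 and 10.94 in knockout and 10.90, 10.92, 10.89 and 10.88 in wild type samples. Knockout samples 1, 2 and 3 lay below every wild type sample while knockout sample 4 lay above them all, the reverse of its place in Gabarapl1. The difference was -0.052 (SE 0.0550, limma adjusted p 0.870, exact permutation p 0.200), and -0.083 without knockout sample 4.

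Single samples set part of this picture. Knockout sample 4 was the lowest of the 8 arrays in 6 of the 10 genes, namely Trim63, Fbxo32, Map1lc3b, Gabarapl1, Sqstm1 and Ulk1, and wild type sample 1 was the highest in 4. Without knockout sample 4 the knockout mean was lower in 8 of 10 members and the median difference was -0.020, with Trim63 at 0.021 and Ulk1 at 0.0037. Without wild type sample 1 it was lower in 8 of 10, with Foxo1 at 0.012 and Foxo3 at 0.0050, and the median was -0.028. Under quantile normalization and under median centring of the arrays the knockout mean stayed the lower in all 10.

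The members were next compared with each other across the 8 arrays, in 45 pairs. Pearson's r was above 0 in 30 pairs and had an exact permutation p under 0.05 in 7, but 0 of 45 passed after Benjamini-Hochberg adjustment (lowest adjusted p 0.0837 for r and 0.323 for Spearman's rho). All pairs share the same 8 arrays and the same normalization.

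**Figure D3:**
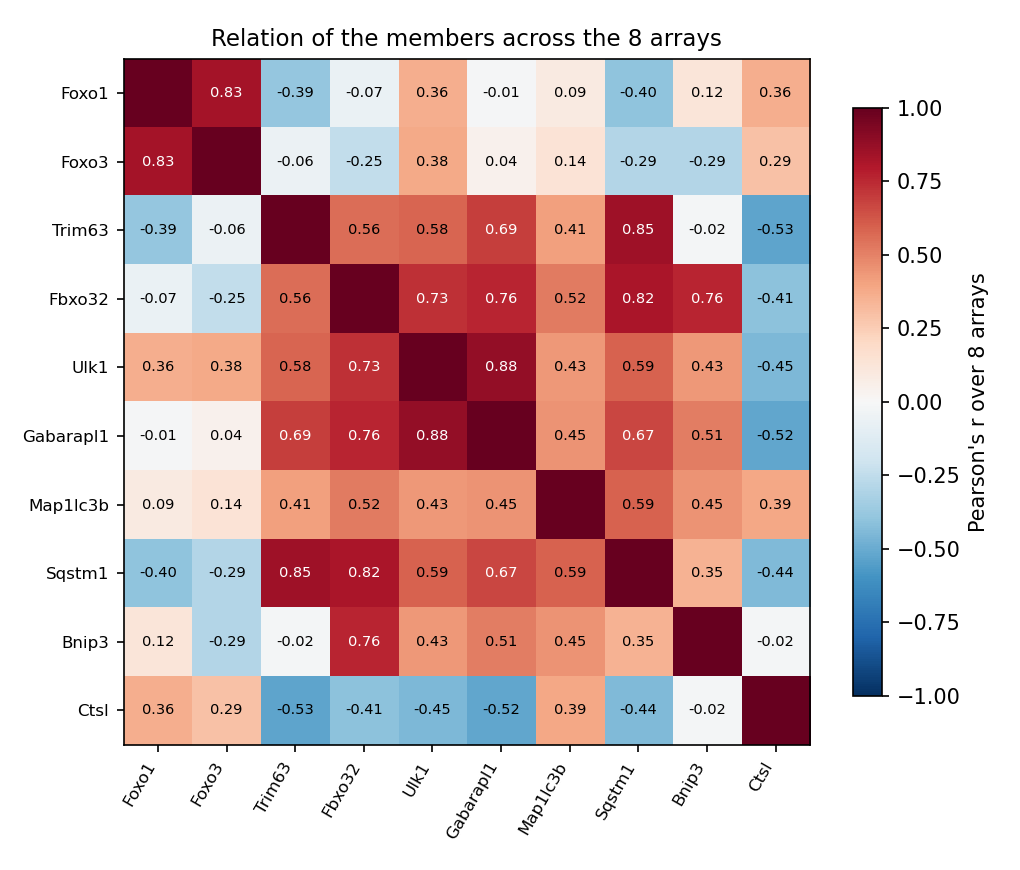
Pearson's r over the 8 arrays for each pair of genes (rows and columns; colour from -1 in blue to 1 in red). Trim63, Fbxo32, Ulk1, Gabarapl1, Map1lc3b and Sqstm1 have positive r with one another (0.41 to 0.88), Foxo1 and Foxo3 pair with each other (0.83), and Ctsl has negative r with Trim63, Fbxo32, Ulk1, Gabarapl1 and Sqstm1 (-0.53 to -0.41).

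The closest relation was that of the autophagy genes Gabarapl1 and Ulk1. Over 8 samples r was 0.88 (exact permutation p 0.00186, adjusted 0.0837) and rho was 0.88 (exact p 0.00724, adjusted 0.323). Without knockout samples 3 and 4, the arrays farthest from the Gabarapl1 median, r was 0.77 (exact p 0.0819). After the genotype means were removed it was 0.88, with an exact p of 0.00521 when arrays were permuted within genotype (adjusted 0.234).

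Sqstm1 had a high r with both ligases, which did not pass after adjustment. With Trim63, r was 0.85 (exact permutation p 0.0104, adjusted 0.13) and rho 0.80 (exact p 0.0215, adjusted 0.323), and r was 0.77 (exact p 0.0778) without knockout samples 1 and 4. With Fbxo32, r was 0.82 (exact p 0.0117, adjusted 0.13) and rho 0.80 (exact p 0.0215, adjusted 0.323), and r was 0.81 (exact p 0.0417) without knockout samples 3 and 4. The ligases themselves had an r of 0.56 (exact p 0.148, adjusted 0.511) and a rho of 0.50 (exact p 0.216, adjusted 0.613) with each other.

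Foxo1 and Foxo3 had an r of 0.83 (exact permutation p 0.0114, adjusted 0.13) and a rho of 0.71 (exact p 0.0576, adjusted 0.37). Without wild type samples 1 and 4, r was 0.44 (exact p 0.396), so this relation rests on those samples. The factors and the ligases had weaker relations. For Trim63, r was -0.39 (exact p 0.328; rho -0.31, exact p 0.462) with Foxo1 and -0.06 (exact p 0.888; rho 0.17, exact p 0.703) with Foxo3. For Fbxo32, r was -0.07 (exact p 0.874; rho 0.05, exact p 0.935) with Foxo1 and -0.25 (exact p 0.554; rho -0.05, exact p 0.935) with Foxo3.

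**Figure D4:**
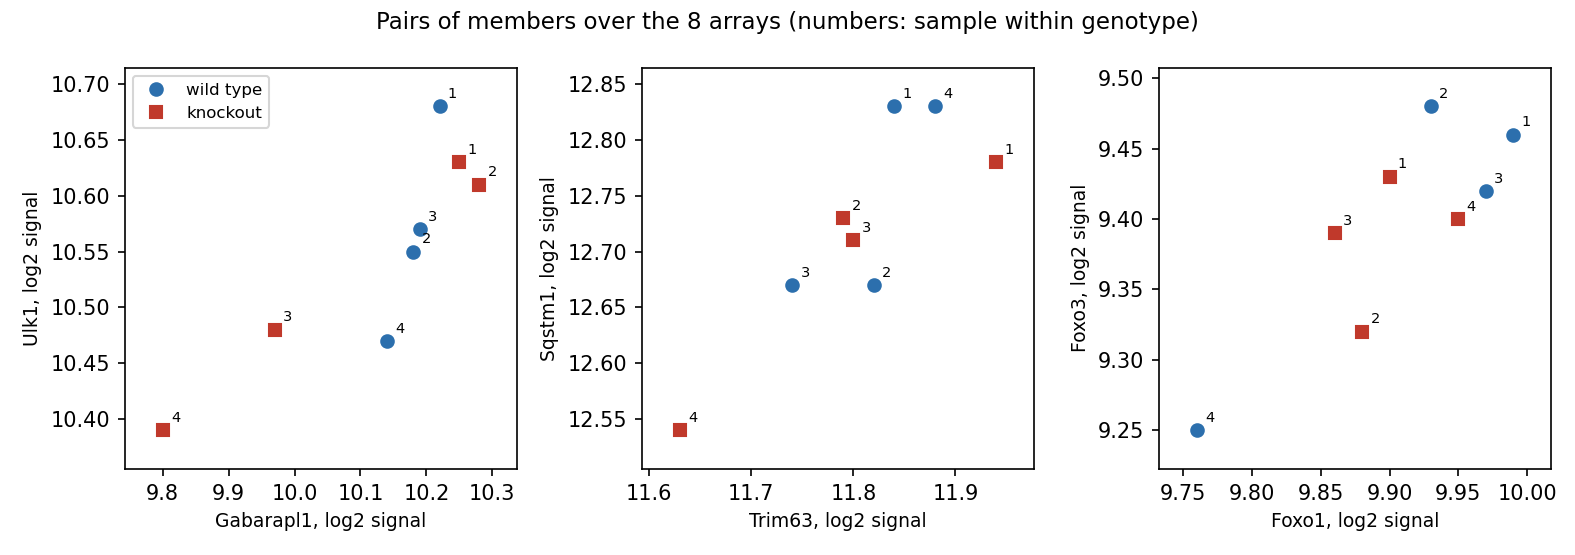
Log2 signal of 3 pairs of genes in each sample (blue circles wild type, red squares knockout, numbered within genotype). Gabarapl1 and Ulk1 vary together (r = 0.88) with knockout samples 3 and 4 at the low end. Trim63 and Sqstm1 also vary together (r = 0.85), with knockout sample 4 at the low end. Wild type sample 4 sits alone at the low end of Foxo1 and Foxo3.

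The wider pathway was described through 8 lists written from textbook knowledge, with earlier results of these data known. In these lists 0 genes passed over all genes in limma. Their counts at an unadjusted p under 0.05 are to be read against 4.72% of all genes higher and 3.18% lower in knockout. The list of FOXO regulators had 24 measured genes. Among them were kinases, insulin and IGF-1 receptors and acetylation enzymes, and also the factors Foxo4 and Foxo6. Of the 24, 14 had a higher and 10 a lower knockout mean, with a median difference of 0.0073. At an unadjusted p under 0.05 limma gave 0 higher and 2 lower. The smallest p-values belonged to Prkag3, the AMPK subunit of fast fibres (11.66 in knockout, 11.96 in wild type, difference -0.300, SE 0.0897, adjusted p 0.37), to the IGF-1 receptor Igf1r (-0.186, SE 0.0725) and to the insulin receptor Insr (-0.116, SE 0.0600, with -0.042 on its other probe set).

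Other atrophy ligases and atrogenes numbered 33, of which 23 had a higher and 10 a lower knockout mean (median 0.035). At an unadjusted p under 0.05 limma gave 2 higher and 2 lower. FOXO targets in this list differed in sign. Pdk4, the kinase that shuts pyruvate out of the citrate cycle, was at 13.69 in knockout and 13.30 in wild type (difference 0.394, SE 0.138, adjusted p 0.462), whereas Sesn3, a sestrin that restrains mTORC1, differed by -0.187 (SE 0.0638, adjusted p 0.461). Klf15, a glucocorticoid-induced factor of amino acid breakdown, differed by -0.218 (SE 0.0797, adjusted p 0.479).

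The list for the denervation axis of class IIa deacetylases had 18 measured genes, 8 with a higher and 10 with a lower knockout mean (median -0.016). Besides Hdac4, Dach2 and myogenin it holds genes, such as those of the acetylcholine receptor, not named above as steps towards Trim63 and Fbxo32. At an unadjusted p under 0.05 limma gave 1 higher and 2 lower. Musk, the receptor kinase that organises the neuromuscular junction, was at 11.07 in knockout and 11.48 in wild type (difference -0.406, SE 0.0902, adjusted p 0.18), and every knockout sample lay below every wild type sample. Chrnb1, a subunit of the acetylcholine receptor, separated the same way (difference -0.247, SE 0.0770, adjusted p 0.397). Hdac9, another class IIa deacetylase, had the opposite separation, at 9.87 in knockout and 9.51 in wild type (difference 0.365, SE 0.0794, adjusted p 0.163). Separation upward was found in 2.91% of all genes. Of the steps named earlier, Dach2 differed by 0.204 (SE 0.107), myogenin (Myog) by 0.043 (SE 0.0889) and Hdac4 by -0.111 (SE 0.0716), each with overlapping genotypes.

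The autophagy machinery outside the 10 genes was split. Initiation and nucleation genes numbered 20, of which 10 had a higher and 10 a lower knockout mean (median 0.0062), with 2 higher and 0 lower at an unadjusted p under 0.05 in limma. Bcl2, which binds Beclin 1 and holds autophagy back, differed by 0.256 (SE 0.0927), Atg14, a subunit of the Beclin 1 lipid kinase complex, by 0.199 (SE 0.0891) and Vmp1, a membrane protein of autophagosome formation, by 0.130 (SE 0.0663).

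The list of the remaining ATG8 proteins and of the genes that process and conjugate them was mixed in sign, and none passed. The ATG8 proteins themselves were at -0.047 (Gabarap, SE 0.0638), -0.028 (Gabarapl2, SE 0.0614) and 0.0035 (Map1lc3a, SE 0.0647). Of 14 genes, 9 had a higher and 5 a lower knockout mean (median 0.011), and limma gave 2 higher and 0 lower at an unadjusted p under 0.05. These were the ATG8 proteases Atg4b (difference 0.184, SE 0.0790) and Atg4a (0.132, SE 0.0577, with 0.125 on its other probe set). Atg12, the ubiquitin-like partner of ATG5, differed by 0.137 (SE 0.0702).

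Of 14 other autophagy and mitophagy receptors and fusion factors, 5 had a higher and 9 a lower knockout mean (median -0.011), with 3 higher and 0 lower at an unadjusted p under 0.05 in limma. Fundc1, a mitophagy receptor on the outer mitochondrial membrane like Bnip3, was at 10.92 in knockout and 10.62 in wild type (difference 0.296, SE 0.0836, adjusted p 0.328), with every knockout sample above every wild type sample. The fusion factor Stx17 (0.177, SE 0.0629) separated likewise, and the late endosome adaptor Plekhm1 differed by 0.165 (SE 0.0628).

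Lysosome genes other than Ctsl numbered 28, with 12 higher and 16 lower knockout means (median -0.013) and 1 higher and 2 lower at an unadjusted p under 0.05 in limma. Atp6v0a1, a subunit of the proton pump, differed by -0.129 (SE 0.0566) and the peptidase Tpp1 by -0.150 (SE 0.0684). Mitf, a relative of TFEB, had a difference of 0.173 (SE 0.0675) where the brightest probe set was taken and one of -0.204 from its other probe set, so its direction is not settled.

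Glucocorticoids are a further input to Trim63 and Fbxo32. The list of genes that they induce, with the gene of their receptor, had 6 higher and 8 lower knockout means among 14 (median -0.030). At an unadjusted p under 0.05 limma gave 3 higher and 1 lower. Fkbp5, a chaperone of the glucocorticoid receptor, was at 10.16 in knockout and 9.79 in wild type (difference 0.372, SE 0.134, adjusted p 0.469). Angptl4, an inhibitor of lipoprotein lipase, differed by 0.318 (SE 0.119) and the transcription factor Zbtb16 by 0.142 (SE 0.0596).

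**Figure D5:**
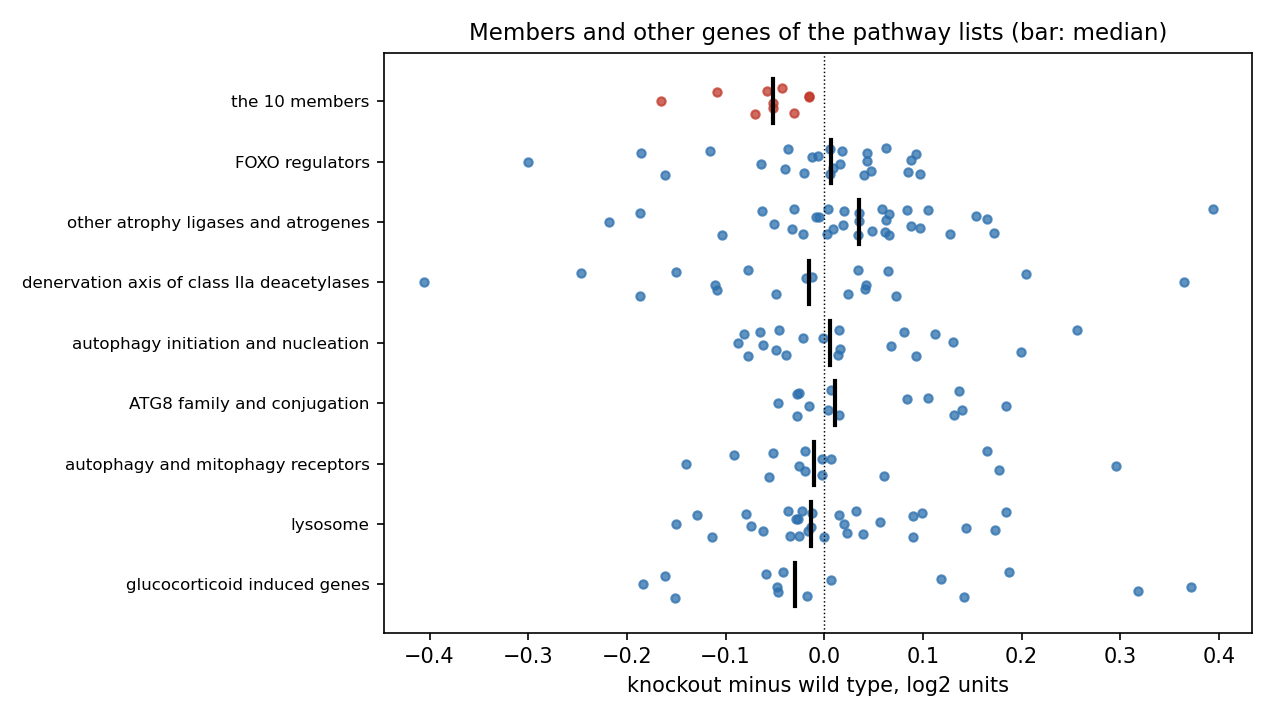
Knockout minus wild type difference in log2 units (horizontal axis) of the 10 genes (red) and of every measured gene in the 8 pathway lists (blue); black bars are medians. The 10 genes all lie below 0 (median -0.052), while the lists spread to both sides with medians from -0.030 to 0.035.

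Across the series, array medians lay between 7.69 and 7.77 and arrays correlated at 0.988 to 0.995. The targeted gene matched its labels: Hdac5 ranged from 8.31 to 8.39 in knockout and from 9.76 to 9.94 in wild type samples (limma adjusted p 1.74e-07). The mean log2 signal of 11 fast fibre and general muscle markers ranged from 14.29 to 14.34 in knockout and from 14.32 to 14.36 in wild type samples. Myoglobin (Mb) was at percentile 99.8 of array signal. All 11 had a lower knockout mean, with a median difference of -0.025 and 0 at an unadjusted p under 0.05 in limma. No marker passed over all genes. Slow fibre markers had a lower knockout mean in 7 of 8 genes (10.63 to 11.26 against 11.24 to 11.62), with a median difference of -0.58, and limma gave 7 lower and 1 higher at an unadjusted p under 0.05. Macrophage markers had a higher mean in 13 of 14 (8.24 to 8.54 against 8.04 to 8.32), with a median difference of 0.24 and 7 higher at an unadjusted p under 0.05 in limma. Fibroblast markers had a higher mean in 8 of 9 (10.21 to 10.58 against 10.12 to 10.39), with a median difference of 0.19 and 4 higher at that p. Schwann cell markers had a lower mean in 3 of 3 (8.74 to 9.08 against 8.99 to 9.39), and limma gave 1 of them lower at an unadjusted p under 0.05. Endothelial markers were at 10.16 to 10.48 against 10.22 to 10.37. Neutrophil markers, with 0 of 5 genes above the median signal, were at 6.23 to 6.47 against 6.33 to 6.46. The ranges of the list means overlapped between the genotypes in every marker list, for slow fibre only between 11.24 and 11.26. Among single slow fibre genes, Myh7, Tnnc1, Tnni1, Myl3 and Atp2a2 had every knockout sample below every wild type sample. Such a separation downward was found in 1.99% of all genes. Tnnt1 and Myl2 were lower with overlap, and Casq2 was higher with overlap (0.353, SE 0.119). Adipocyte markers lay between 8.41 and 8.84 in knockout samples and spread wider in wild type, where sample 2 was at 9.68 and sample 3 at 7.51. Fewer cells of a type and less RNA per cell cannot be told apart in whole muscle, and the part of fibre type, macrophages and fibroblasts in the differences of Map1lc3b and of Ctsl, which those cells also express, was not tested.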

How the data were processed

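Per the labels, total RNA (150 ng per array, RNA integrity number above 8) from gastrocnemius was amplified, biotin-labelled and hybridised to 8 arrays. The deposited values are log2 signals, 1 per probe set and array, made by the authors with Affymetrix Expression Console 4.0, per the submitters' processing notes. The sources used here do not give the background correction, summarisation or normalization. The log2 scale follows from the range of the values. They were not normalized again.

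Of 35556 probe sets, 21789 had exactly 1 symbol in the platform annotation, 1621 several and 12146 none listed. The brightest probe set per gene gave 19938 genes. Genotypes were compared with limma 3.58.1 in R 4.3.3 (lmFit, eBayes, genotype as the only term), with Benjamini-Hochberg adjustment over all genes and a threshold of 0.05. The fit was tested on simulated data with independent noise for each gene and with shifts larger than the differences of the members. That test therefore does not cover differences as small as theirs. Each difference subtracts the wild type mean from the knockout mean, with limma's moderated SE. A 2-sided exact permutation test over the 70 ways of splitting 8 arrays into groups of 4 was run for each member. Relations between members used all 40320 pairings of 8 arrays (720 for 6 arrays, 576 within genotype), 2-sided, in Python 3.11.15, and plots used matplotlib 3.10.9.

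The members and lists were chosen with earlier results of these data known. The text names Hdac5, the 10 members, from each pathway list the genes past the threshold and the 3 of smallest p, and the 5 genes nearest in profile to Trim63 and to Fbxo32. It also names Gabarap, Gabarapl2, Map1lc3a, Hdac4, Dach2, Myog, Foxo4, Foxo6 and single fibre markers, which that rule does not cover. Lists are described by counts and medians, without a set test. Alternatives covered normalization, probe set choice, dim genes, the variance model, array weights, left-out samples and a replicate block. Promoters and gene names came from RefSeq tables of GRCm38.p6, in which all 10 members were matched by gene identifier. The number of arrays limits the precision.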

Additional observations from a re-analysis of the deposited data

How the results depend on the processing

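No member passed in any of 17 alternatives. The knockout mean stayed the lower in all 10 members in 12 of these, and the median difference lay between -0.076 and -0.020 throughout, with -0.076 to -0.020 when single samples were left out. Map1lc3b kept its direction in all 17, at limma adjusted p-values of 0.209 to 0.735. With 1 sample left out at a time, Trim63 ranged from -0.081 to 0.021, Foxo1 from -0.066 to 0.012, Foxo3 from -0.067 to 0.0088 and Ulk1 from -0.078 to 0.0037, the 4 members whose sign turned. For Foxo1 the sign turned without wild type sample 1 or 3 (0.012 and 0.0044), and for Foxo3 without knockout sample 2, wild type sample 1 or wild type sample 2 (0.0059, 0.0050 and 0.0088). Of 408 values under the alternatives for the 24 list genes named by smallest p, 1 turned its sign: Mitf, at -0.016 with the mean of all its probe sets. Leaving out 1 sample moved 3 of these genes by over 1.5 times, Fkbp5 to 0.24 without knockout sample 2, and Angptl4 and Atg4b to 0.20 and 0.11 without knockout sample 1. The cause was not tested.

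The count of genes past the threshold, 13 in all, was 36 with dim genes left out, 28 with all probe sets fitted, 44 with a trended and robust eBayes, 31 with array weights, and 5 to 20 with 1 sample left out. It was 5 when knockout sample 1 and wild type sample 4, the ends of the first principal component, were left out together, an alternative added after seeing the data. With the replicate block, the number in the titles as a term, it was 30, with 0 members among them. Whether equal numbers pair the samples was not settled: their deviations correlated at 0.34, -0.11, -0.15 and 0.34 for numbers 1 to 4. Knockout samples 1 and 4 came closest to the wild type sample of their own number. Knockout sample 2 came closest to wild type sample 3, and knockout sample 3 to wild type sample 2. No pair of members passed in any of the alternatives for the 45 pairs.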

Other observations

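The genes whose profile over the 8 arrays lay nearest to those of the ligases were found by the root mean square distance between mean-centred log2 values, among genes of above-median signal. For Trim63 they were Phkg1, the catalytic subunit of muscle phosphorylase kinase (distance 0.024), the seryl-tRNA synthetase gene Sars (0.029), Vps35l (0.031), Mrpl11 (0.033) and Fkbp8 (0.033). For Fbxo32 they were Zdhhc23 (0.026), the threonyl-tRNA synthetase gene Tars (0.027), the SUMO protease Senp2 (0.029), Atg13 of the ULK1 complex (0.032) and Tbrg4 (0.033). The median distance over the 9968 genes compared was 0.12 for either ligase. Genes of small spread, like the ligases here (SD over the 8 arrays 0.091 and 0.096), come out near each other by this measure.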
